A study of Trametes elegans with 15 samples.

Results

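In *Trametes elegans*, a white-rot fungus studied here as strain BRFM 1663, 26 genes had high transcript levels on maltose and on crystalline cellulose and low levels on both woods, pine and aspen. The members were chosen by their own deposited values, out of 949 genes listed for 5 culture media. For each gene the 5 values were sorted and the largest step between neighbouring values, called the gap here, was taken. A gene was kept where the gap was at least 1 on the log2 scale, with maltose and cellulose above it and pine and aspen below it. Wheat straw could lie on either side, and it lay on the high side in 11 members and on the low side in 15. Every difference across the gap is therefore a description of how the genes were picked, and carries no test.

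The labels list 15 mycelium samples, 3 per medium, taken on day 3 of shaken culture at 30 °C. The control cultures were given maltose, a soluble sugar made of a pair of glucose units, at 20 g/l and no solid. The other cultures held 15 g/l of Avicel (microcrystalline cellulose), ground wheat straw, ground pine or milled aspen. Beside cellulose, straw and pine the labels give maltose at 2.5 g/l, while the amount beside aspen is not legible there. Cellulose and pine were thus labelled with equal sugar, whereas the maltose medium differs from cellulose, straw and pine in the amount of sugar as well. All cultures are of 1 strain, and the labels do not say that the replicates were separate cultures, so each p-value measures the spread between libraries, which may be technical.

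White-rot fungi break down cellulose, hemicelluloses and lignin with secreted enzymes, and are the main decomposers of lignin in wood. Such fungi adjust transcription both to easily used sugars, which often keep genes for the use of polymers low, and to compounds released from the plant cell wall. Pine is a softwood and aspen a hardwood, which differ in their hemicelluloses, lignin and extractives, while Avicel holds cellulose with almost none of the other wall polymers. The table identifies genes only by number, so no function is given to any member.

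Levels below are the authors' deposited log2 normalised read counts, 1 per medium. Each is the mean of its libraries, and the values of single libraries were recovered from its decimals as described under the processing, for 3 libraries per medium and for 2 on straw. The deposited straw value itself decodes as a mean over 2 libraries. Which 2 of the 3 labelled straw samples these are is not known. Most values at 13 or more and a few below could not be split into libraries, and 7 members have no library values on maltose and 4 have none on cellulose. A library held 420872 to 1158095 reads on the 784 genes recovered throughout, and its total depth is not known. Gene lengths are not in the table, so levels are compared between media for a gene and not between genes. In bulk mycelium, fewer cells that express a gene and less of its RNA per cell cannot be told apart.

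Over the 26 members the gap ran from 1.02 to 4.30, with a median of 1.78, a 3.44-fold step. Maltose was the highest medium for 15 members, cellulose for 8 and straw for 3. Pine was the lowest medium for 19, straw for 5 and aspen for 2. Against maltose the level was lower by 1.36 to 6.82 on pine (median change -3.73) and by 1.28 to 5.74 on aspen (median change -2.91). Over all 949 genes the medians were 0.08 and 0.27. This contrast was fixed by the rule, which puts both woods at least 1 below maltose. The most frequent order, found in 8 members, was maltose, cellulose, straw, aspen, pine, from high to low.

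**Figure D1:**
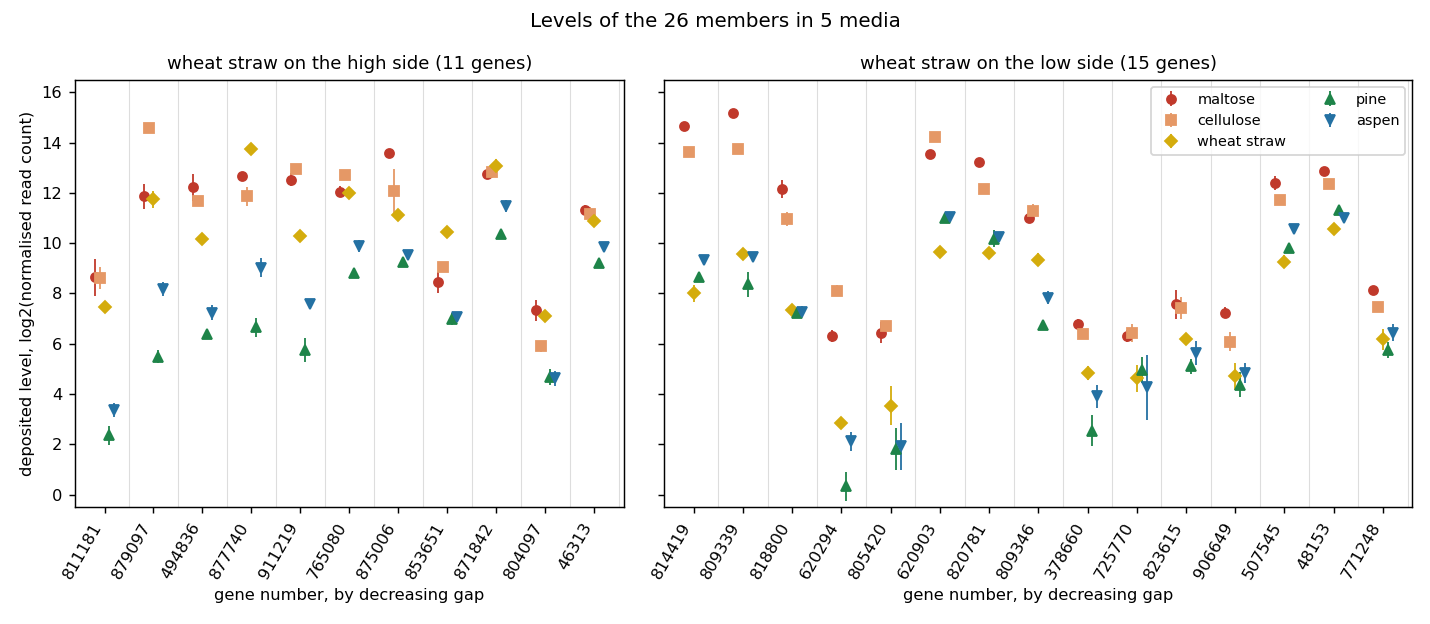
Deposited log2 normalised read count (vertical axis) of each of the 26 members, ordered by decreasing gap within the 11 genes with straw on the high side (left) and the 15 with straw on the low side (right). Each symbol is a medium and each bar the SD between recovered libraries (3 per medium, 2 on straw; no bar where the libraries could not be recovered). Pine and aspen lie below maltose and cellulose for every gene, because the genes were chosen that way, and the straw symbols lie with either pair.

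Gene 811181 had the widest gap of the members that stayed high on straw. Its level was 7.97, 8.49 and 9.45 in the maltose libraries, 8.87, 8.88 and 8.11 on cellulose and 7.45 and 7.47 on straw. On pine it was 2.78, 2.07 and 2.20, from 6, 3 and 3 reads, and on aspen 3.65, 3.10 and 3.29, from 13, 8 and 9 reads. The lowest maltose or cellulose library stood 4.32 above the highest wood library. Between the medium means, maltose was 77.9-fold above pine and 39.1-fold above aspen on this log2 scale, which understates folds for genes with few reads.

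Gene 911219 summed to 19899 reads over the maltose libraries and 22714 on cellulose, but to 150 on pine and 609 on aspen. Its level was 12.26, 12.54 and 12.79 on maltose and 12.94, 12.86 and 13.09 on cellulose. Straw was intermediate at 10.15 and 10.46. The pine libraries read 5.56, 5.41 and 6.28 and the aspen libraries 7.42, 7.67 and 7.65, so the woods did not overlap each other. Maltose was 110-fold above pine and 31.0-fold above aspen.

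For gene 494836 the maltose libraries stood at 11.77, 12.09 and 12.80 and the cellulose libraries at 11.68, 11.61 and 11.68. The straw libraries, both at 10.18, lay below all of these and above all wood libraries. Pine read 6.47, 6.20 and 6.49, and aspen 7.47, 7.34 and 6.90. The gap, between straw and aspen, was 2.94.

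Gene 879097 was higher on cellulose, at 14.57, than on maltose, at 11.87 ± 0.49 (SD, n = 3), and its straw level of 11.75 ± 0.35 (SD, n = 2) was within the maltose spread. It read 5.49 ± 0.25 on pine and 8.17 ± 0.27 on aspen (SD, n = 3 each). The step from straw down to aspen was 3.57, and pine lay a further 2.68 lower. The cellulose libraries of this gene could not be recovered.

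Straw was the highest medium for gene 877740, with 13.72 and 13.75 in its libraries. Maltose was at 12.68 and cellulose at 12.20, 11.95 and 11.44. Pine stood at 6.94, 6.20 and 6.80, and aspen at 9.45, 8.89 and 8.75. Genes 853651 and 871842 were also highest on straw: the former read 10.42 ± 0.01 there (SD, n = 2) against 8.46 ± 0.42 on maltose and 9.05 ± 0.18 on cellulose (SD, n = 3 each).

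Among the other members that stayed high on straw, gene 765080 had 12.05 on maltose, 12.72 on cellulose and 12.01 on straw, against 8.82 on pine and 9.89 on aspen. Its libraries were tight, and the gap of 2.12 was 9.50 times the largest SD of any medium. Gene 875006 is less firmly placed: its cellulose libraries read 11.41, 11.75 and 13.07, and its gap of 1.59 was 1.81 times that SD of 0.88. Genes 871842, 804097 and 46313 had gaps of 1.28, 1.22 and 1.05. Gene 871842 stood at 12.74 on maltose and 12.82 on cellulose, against 10.35 on pine and 11.46 on aspen. Gene 46313 was at 11.32, 11.16 and 10.90 on maltose, cellulose and straw, and at 9.22 on pine and 9.85 on aspen.

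The members that were low on straw too included those with the widest gaps of all. Gene 814419 stood at 14.66 on maltose and 13.62 on cellulose, and at 8.64 ± 0.05 on pine and 9.32 ± 0.07 on aspen (SD, n = 3 each), with straw lower still at 8.01 ± 0.33 (SD, n = 2). Its gap of 4.30, from cellulose to aspen, is a 19.7-fold step. Gene 809339 had the highest maltose level of the members, 15.19, and 13.73 on cellulose. It was at 9.57 ± 0.03 on straw, 9.45 ± 0.18 on aspen and 8.37 ± 0.50 on pine, so that maltose was 113-fold above pine.

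Gene 818800 was flat across the 3 plant materials. Its maltose libraries read 11.75, 12.47 and 12.23 and its cellulose libraries 10.78, 10.81 and 11.29. Straw stood at 7.20 and 7.47, pine at 7.14, 7.39 and 7.19, and aspen at 7.22, 7.51 and 7.11. The straw, pine and aspen libraries overlapped fully, while the step up to cellulose was 3.63.

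Gene 620294 was nearly undetected on wood. It held 96, 74 and 94 reads on maltose and 232, 311 and 242 on cellulose, but 6 reads in each straw library. The aspen libraries held 3, 3 and 5 reads and the pine libraries 1, 0 and 0. Gene 805420 was similar, with 73, 127 and 95 reads on maltose and 96, 102 and 93 on cellulose. It held 7 and 15 on straw, 1, 5 and 2 on pine and 7, 3 and 1 on aspen. Its pine and aspen libraries overlapped, and both straw libraries lay above them in level. However, straw library a and aspen library a held 7 reads each and differed in level only through scaling.

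**Figure D2:**
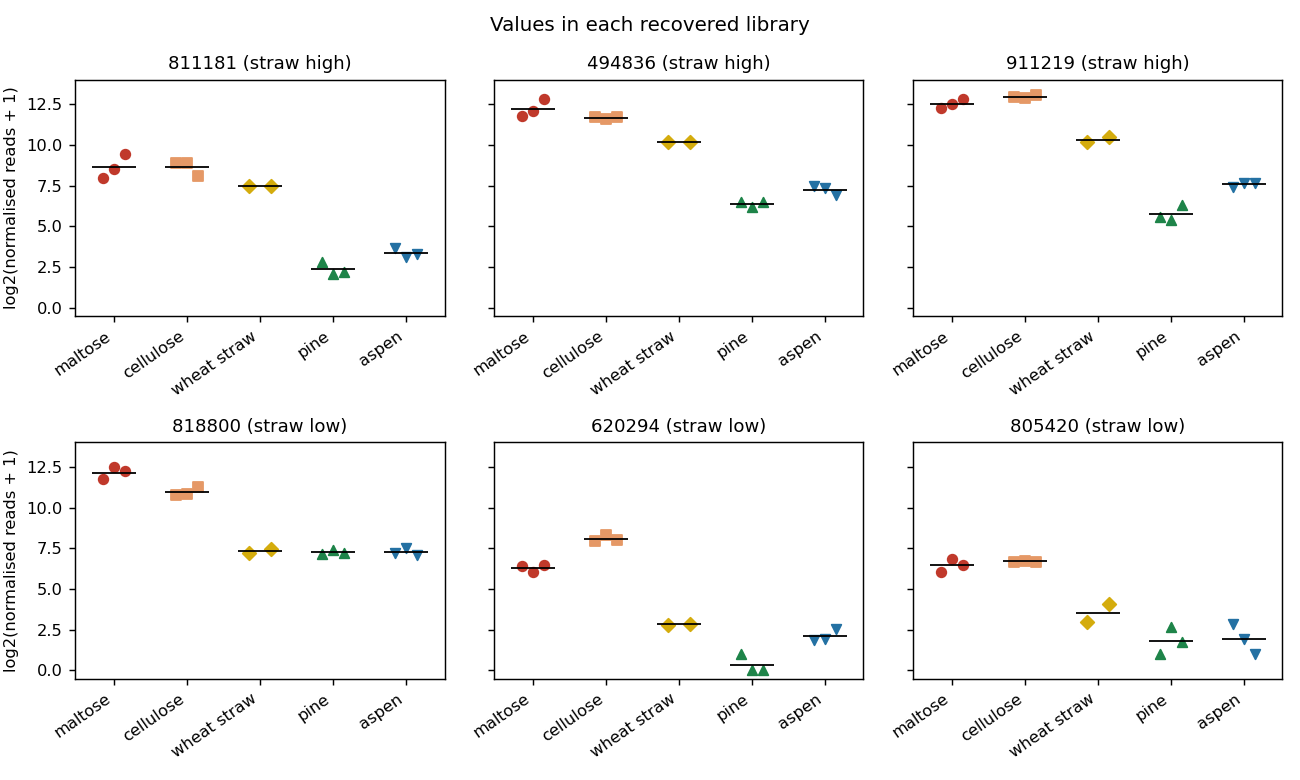
Level in each recovered library, as log2(normalised reads + 1), for the 3 members of the widest gap on each straw side among those recovered in every library. Points are libraries (3 per medium, 2 on straw), black lines are means, and in all 6 genes every maltose and cellulose point lies above every pine and aspen point.

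Gene 620903 was lowest on straw, at 9.68 and 9.61, with pine at 11.05, 10.98 and 10.95 and aspen at 11.04 ± 0.06 (SD, n = 3). Maltose stood at 13.53 and cellulose at 14.22. The straw libraries lay more than 1 below all wood libraries. Genes 820781, 507545, 48153 and 814419 were the other members with a straw value below both woods.

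Gene 809346 had the highest place of straw among the members low on straw, 53.5% of the way from the mean of its wood levels to that of its maltose and cellulose levels. Maltose read 10.81, 11.02 and 11.15, cellulose 11.18, 11.59 and 11.07, and straw 9.53 and 9.17. Pine was at 6.93, 6.69 and 6.60, and aspen at 7.62, 7.79 and 8.11. The step of 1.65 from maltose down to straw exceeded that from straw to aspen, and without straw library b the latter became the larger, so the gene changed to the high side.

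The other members low on straw had gaps of 1.02 to 1.55. At high levels, 507545 stood at 12.40 ± 0.29 on maltose and 11.72 ± 0.11 on cellulose, and at 9.79 ± 0.15 on pine and 10.57 ± 0.05 on aspen (SD, n = 3 each). Gene 48153 stood at 12.88 ± 0.14 and 12.36 ± 0.12 on maltose and cellulose (SD, n = 3 each), and maltose was 2.94-fold above pine and 3.68-fold above aspen. The straw levels were 9.26 ± 0.26 for 507545 and 10.56 ± 0.09 for 48153 (SD, n = 2 each), and in both genes each straw library lay below each wood library.

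Gene 378660 held 365 reads over the maltose libraries and 236 on cellulose, but 54 on straw, 14 on pine and 47 on aspen, so straw stood 48.2% of that way. Gene 823615 was at 7.57 ± 0.58 on maltose and 7.42 ± 0.44 on cellulose, against 5.10 ± 0.28 on pine and 5.63 ± 0.48 on aspen (SD, n = 3 each). Genes 906649 and 771248 had straw values between those of pine and aspen. The former was at 7.23 on maltose and 6.08 on cellulose, with straw at 4.70, pine at 4.37 and aspen at 4.84. The latter was at 8.14 on maltose and 7.46 on cellulose, with straw at 6.17, pine at 5.75 and aspen at 6.45.

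Scaled so that the mean of pine and aspen is 0% and the mean of maltose and cellulose is 100%, straw lay between -48.8% and 197% in the 26 members. In the 11 members with straw on the high side it ran from 50.2% to 197% (median 80.1%), and in the 15 others from -48.8% to 53.5% (median 4.20%). By order alone, straw lay between the pair of high media and the pair of woods in 14 members, 7 on each side. These places ran from 1.72% in 818800 to 87.6% in 765080, so some lay close to a pair. The sides overlapped, with 875006 at 50.2% (high) and 809346 at 53.5% (low), so the division by straw is graded rather than clean. Straw was above both maltose and cellulose in 3 members, between these in 1 (804097), between pine and aspen in 3 and below both woods in 5.

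**Figure D3:**
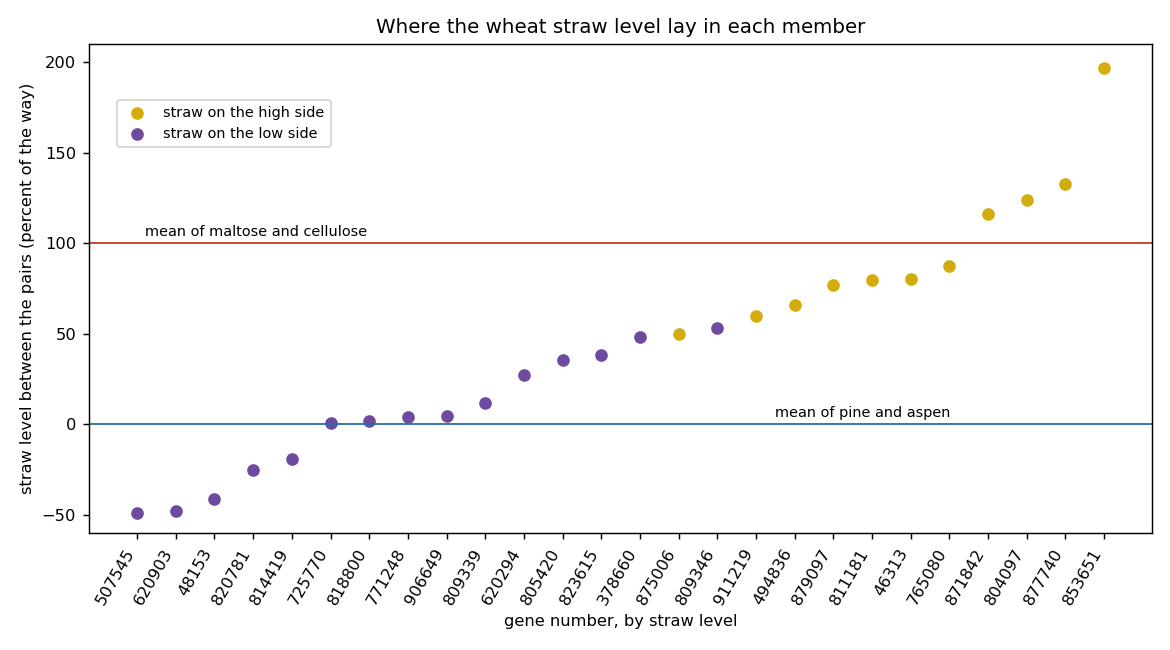
Position of the deposited straw level of each member on a scale where 0% is the mean of its pine and aspen levels and 100% the mean of its maltose and cellulose levels. Points are genes ordered by this position and coloured by the side of the gap on which straw fell; 875006 at 50.2% (high side) and 809346 at 53.5% (low side) lie next to each other.

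The recovered libraries describe the same division in finer detail, since they come from the deposited values that the rule used. In 18 members all maltose, cellulose, pine and aspen libraries were recovered, and in each of these 18 every maltose and cellulose library lay above every wood library. Over all genes recovered in these media this held for 9.18% (72 of 784); since the rule used these same values, nothing is read from either count. The distance between the closest libraries ran from 0.49 in 771248 to 4.59 in 911219, and was at least 1 in 9 members.

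The threshold passes through a continuous range. Just inside it were 771248 (gap 1.02), 48153 (1.03) and 46313 (1.05). Just outside were 857299 (0.98), 808877 (0.96) and 427425 (0.94), among 21 genes with the same sides and a gap under 1. Gene 857299, for example, stood at 7.80 to 8.16 on maltose, cellulose and straw, and at 6.56 on pine and 6.82 on aspen.

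Several members rest on spread-out libraries. Gene 725770 had 7, 23 and 43 reads in the aspen libraries, an SD of 1.30 against its gap of 1.36. When each of the 14 libraries was left out in turn, 23 to 27 genes met the rule and 17 of the 26 members met it every time. The 9 that dropped out at least once were 46313, 48153, 378660, 771248, 804097, 853651, 871842, 875006 and 906649. A medium without recovered libraries for a gene kept its deposited value, so leaving out its libraries could not change that gene. Of the members kept every time, this applied to 879097 on cellulose, 877740 and 820781 on maltose, and 814419, 809339 and 620903 on both. In the maltose libraries the members varied together: library a was the lowest of the 3 in 15 of the 19 members recovered there, against 49% of 857 genes, and library c the highest in 13, against 41.8%. The woods also showed such shifts. Aspen library c was the lowest in 14 of 26 members, against 34.5% of 858 genes, and pine library b in 12, against 28.9%. Whether these library differences play a part in the grouping was not tested.

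Whether the soluble sugar and crystalline cellulose gave different levels within the high side was asked next. The rule limits this difference, since no single step above the gap may exceed the gap. With straw between the 2 media, as in 804097, the difference (-1.43) can be larger in size than the gap (1.22). Counts of members set beside those of all genes are thus partly fixed by the rule. The members changed in both directions. By limma over the 819 genes recovered in both media (adjusted p under 0.05 and a log2 difference of at least 1), 1 of the 18 members tested was higher on cellulose and 3 were lower. Over all genes tested these calls were made for 27.6% and 11.6%. The median difference, cellulose minus maltose, was -0.16 in the tested members and 0.23 over all genes tested.

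Gene 620294 rose on cellulose, from 6.41, 6.05 and 6.48 to 7.92, 8.34 and 8.04, with no overlap of the libraries. The difference was 1.78 (SE 0.30, limma adjusted p = 0.000103). Gene 804097 fell from 7.27, 6.95 and 7.78 on maltose to 5.91, 5.67 and 6.11, by 1.43 (SE 0.24, adjusted p = 9.23e-05). Gene 818800, whose libraries are given above, fell by 1.19 (SE 0.18, adjusted p = 3.91e-05) and 906649 by 1.15 (SE 0.30, adjusted p = 0.00336). For 811181, the difference was -0.02 (SE 0.33), and its libraries on the 2 media overlapped.

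The other 8 members have no library values on maltose or cellulose and were not tested. Counting by size alone over all 26, 2 were higher on cellulose by at least 1 and 7 were lower, against 28.2% and 12.2% of the 949 genes. The untested members past that size were 879097, at 2.71 above maltose, and 875006 (-1.49), 809339 (-1.46), 814419 (-1.04) and 820781 (-1.04). Median centring of the libraries moved the median of all tested genes from 0.23 to -0.40, and called 1 member higher and 8 lower. Over all 819 genes tested it called 153 higher and 224 lower, against 226 and 95 unscaled. Quantile normalisation called 1 member higher and 7 lower, and 162 and 203 of all genes tested. The number called lower thus depends on the scaling, in the members and over all genes tested. The calls of 620294, 804097, 818800 and 906649 held under both scalings.

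Softwood and hardwood were compared within the low side, where the amount of maltose may differ as well. The rule limits their difference in the same way. The deposited value on aspen was above that on pine in 23 of 26 members, against 61.3% of all 949 genes. This depends on the scaling, for the members and for all genes alike. With median centring the fitted difference was above 0 in 15 members, against 42.2% of all genes tested (64.7% unscaled). Quantile normalisation gave 14 members, against 40.5%, and median-difference centring 17, against 52.8%. By limma over the 832 genes recovered on both woods, 9 of the 26 members were higher on aspen and 0 lower, against 27.0% and 7.21% of all genes tested. Without the fold threshold 15 members were higher and 1 lower, against 382 and 192 of the 832 genes. By size alone the counts were also 9 and 0, against 26.4% and 8.32% of the listed genes. The median difference, aspen minus pine, was 0.69 in the members and 0.39 over all genes tested.

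The 3 largest differences were those of 879097, 877740 and 911219. Gene 879097 had 302, 375 and 254 reads in the aspen libraries and 52, 43 and 30 on pine, a difference of 2.68 (SE 0.24, limma adjusted p = 5.95e-07). Gene 877740 was higher on aspen by 2.38 (SE 0.23, adjusted p = 1.56e-06), and 911219 by 1.83 (SE 0.19, adjusted p = 1.12e-06). These calls held under every scaling, pseudocount and left-out library tried.

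**Figure D4:**
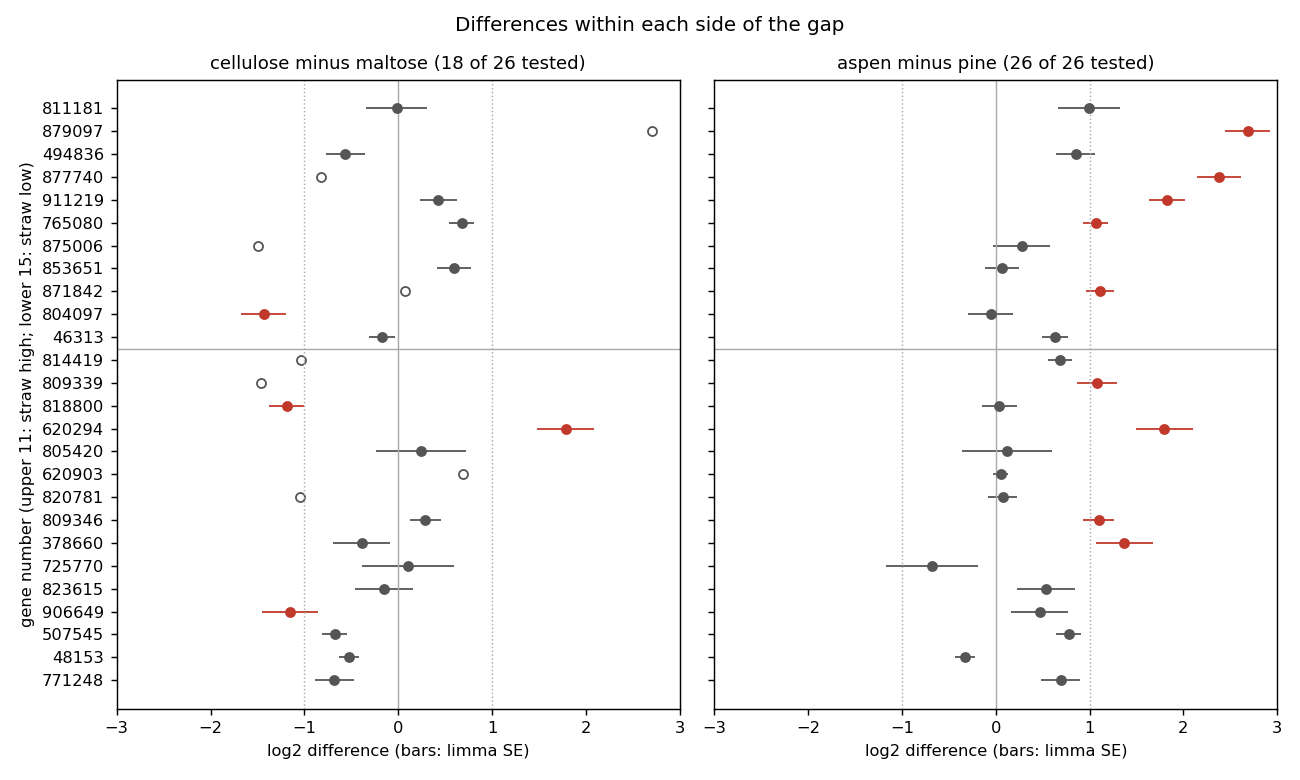
Log2 differences (horizontal axis) of the members between cellulose and maltose (left) and between aspen and pine (right). Filled points are limma estimates with their SE, red where called; open points are differences of the deposited values of members that could not be tested. On the right 23 of 26 points lie above 0, a number that is 15 after median centring (not drawn). Over all genes tested the share above 0 was 64.7%, and 42.2% after median centring.

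The remaining called members were 620294 (1.80, SE 0.30), 378660 (1.37, SE 0.30), 871842 (1.11, SE 0.15), 809346 (1.10, SE 0.17), 809339 (1.08, SE 0.21) and 765080 (1.07, SE 0.13), with limma adjusted p-values of 5.98e-06 to 0.00111. Gene 811181 missed the size by little, at 0.996 (SE 0.33, adjusted p = 0.0150). Left-out libraries ended some calls: 765080 was at 0.96 without pine library b and 0.95 without aspen library a, 809339 at 0.81 without pine library c, and 809346 at 0.96 without aspen library c. The call of 620294 rests on 11 aspen reads and 1 pine read, and a pseudocount of 5 gave 0.66. For 378660, with 47 aspen reads and 14 pine reads, that pseudocount gave 0.94, short of a call.

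Scaling moved these numbers. Median centring took the median over all tested genes from 0.39 to -0.17 and left 4 members called higher (620294, 877740, 879097 and 911219). It called 1 lower (725770, at -1.25, and at -1.26 in the unscaled data without aspen library c). Over all 832 genes tested it called 133 higher and 160 lower, against 225 and 60 unscaled. Quantile normalisation also gave 4 members higher (with 871842 in place of 620294) and 1 lower, beside 129 and 149 of all genes tested. In the unscaled data the difference was 0.04 (SE 0.18) for 818800, 0.05 (SE 0.08) for 620903 and 0.07 (SE 0.15) for 820781, while median centring gave -0.53, -0.52 and -0.49. For 48153 the difference was -0.33 (SE 0.11, limma adjusted p = 0.0150), below the size a call needs.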

How the data were processed

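The authors deposited 1 table of 949 genes with a log2 normalised read count per medium, per the file headers. DESeq 1.5, HTSeq and TopHat2 are listed, without their roles, in the submitters' processing notes. For the genome build, annotation and strand setting, not given in the sources used here, nothing was assumed, and reads shared by similar, overlapping or antisense genes could not be examined. The rule, members and tests were chosen with earlier results of these data known.

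Libraries were recovered because each deposited value is a mean of log2(reads x factor + 1), in which reads are whole. Factors were searched between 0.8 and 1.25 on low values. Of 20 low values per medium, 20 decoded with 2 libraries on straw, and 20 with 3 libraries on each other medium. Whole-read sets were then searched within 4e-14 (natural log) below level 10 and 2e-13 from there. Of 4745 values, 4368 gave exactly 1 set. This held for 2564 of 2564 values below level 9, where 0 decoys shifted by 1e-06 gave a set, and for 1697 of 1741 values at 9 to 13, where 31 decoys did. The 1741 include 389 straw values with 2 libraries, where 0 decoys gave a set. A few read sets at 9 to 13 can therefore be wrong. The search covered a limited range around the deposited mean, narrower at higher levels, so a more widely spread set would not be found. The 333 values at 13 or more with 3 libraries were not searched. Recovery was tested on simulated data with 3 libraries, built from the lower pine values. The upper part of the range from 9 to 13 and the 2 libraries of straw were not simulated. Libraries are named a, b and c by their factors and have no replicate number. No library was a duplicate: pairs from the same medium gave a chi-square of 3.75 to 96.5 for each degree of freedom.

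The values log2(reads x factor + 1) of all 14 libraries went into limma 3.58.1 (R 4.3.3), where the model held the 5 media without covariates and the prior variance followed the level. The fit was tested on simulated data. Benjamini-Hochberg adjustment ran over all genes recovered in both media. The design provided for limma where values per library exist.

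Named genes were the 8 members with the widest gap on each straw side, the 4 highest and 4 lowest on maltose, 3 genes just inside and 3 just outside the threshold, and the 3 largest called differences per direction. Other members named were chosen after their values were seen. Alternatives covered the gap, scaling, pseudocount, filter, media in the fit, fold threshold and left-out libraries.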

Additional observations from a re-analysis of the deposited data

How the results depend on the processing

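The number of members followed the gap: 16 genes (7 with straw high, 9 low) met a gap of 1.5 and 12 (6 and 6) a gap of 2, against 26 (11 and 15) at 1. It stayed within 1.5 times of 26 under the other settings, but the genes moved: median centring gave 26 genes of which 17 were members, quantile normalisation 27 with 18, a pseudocount of 5 gave 24 with 24, and centring on the median difference from the gene means, added after the data were seen, 31 with 22. Gene 911219 changed its straw side under median centring and quantile normalisation. In all, 14 members met the rule under each of these scalings, the pseudocount of 5 and each left-out library. Leaving out maltose or cellulose libraries could not change 879097, 877740, 814419, 809339 and 620903 where those libraries were not recovered.

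Members called between cellulose and maltose numbered 4, but median centring made this 9, quantile normalisation 8 and dropping the fold threshold 10. Over all 819 genes tested the calls numbered 321, 377, 365 and 577 in the same order. Between aspen and pine 9 were called, but 5 after median centring, quantile normalisation or centring on the median difference, and 16 without a fold threshold. Over all 832 genes tested the calls numbered 285, then 293, 278 and 269 after these scalings, and 574 without a fold threshold. Repeated for each called member, the call was kept 133 times and lost 20 times, with 0 reversals; the cause was not tested. No paired analysis was possible because recovered libraries carry no replicate numbers. Low read counts limit the order of the woods for 620294, 805420 and 725770, and levels of 13 or more limit the tests on maltose and cellulose.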

Other observations

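Members 809339 and 809346 have close numbers in the table, and the listed genes 809344 and 809348 lie beside them. The table does not say whether the numbers follow position in the genome, and the genes were picked after their values were seen. Gene 809344 was at 9.26 on maltose, with cellulose at 10.96, straw at 10.65 and pine at 3.86, and aspen at 6.71 lay above its largest step (2.85). Gene 809348 was high on maltose alone, at 11.79, against 7.65 on cellulose, 4.24 on pine, 2.99 on straw and 2.83 on aspen. All 4 genes were lower on both woods than on maltose, with different levels on cellulose and straw. For the members 809339 and 809346 the rule fixed this. Over all 949 listed genes, pine was below maltose in 436 and aspen in 382, so nothing is read from the shared direction.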
